A study of Mus musculus with 30 samples.

Results

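Cytosolic ribosomal protein genes were examined in nuclear RNA-seq of mouse embryonic stem cells (mESCs) from which the chromatin remodeller SRCAP can be depleted. The family was taken by symbol: every protein-coding mouse gene called Rpl or Rps followed by a number, with or without a final a or x, plus Rplp0, Rplp1, Rplp2 and Rpsa. This gave 76 of the 55401 genes in the deposited tables, 46 of the large and 30 of the small ribosomal subunit. They lie on 19 chromosomes, and 4 of them, Rpl10, Rpl36a, Rpl39 and Rps4x, are X-linked. Within 29 of these genes lie 56 annotated snoRNAs. No measured value entered the choice of the genes, and all 76 had enough exon counts to be tested in every table.

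Ribosomal proteins assemble with rRNA in the nucleolus into the small subunit, which decodes mRNA, and the large subunit, which joins amino acids. Their mRNAs are among the most abundant of dividing cells. Most begin with a terminal oligopyrimidine (TOP) tract, a C followed by a run of C and T, through which the mTOR kinase sets their translation. Several ribosomal proteins have further roles, such as RPL5 and RPL11, which bind 5S rRNA and the p53 inhibitor MDM2.

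SRCAP is the catalytic subunit of a complex that places the histone variant H2A.Z in chromatin. SYAT cells, 1 homozygous clone made from the CGR8 mESC line, carry YPet-AID on both Srcap alleles and express OsTir1, so that 500 µM IAA (auxin) triggers degradation of the SRCAP protein. The controls of SYAT cells received auxinole, which blocks OsTir1, and all cells were kept in serum and LIF. Nuclear RNA was sequenced in biological duplicate in 15 groups, which makes 30 libraries in 4 count tables: parental CGR8 cells without the tag, control or with IAA for 4 h; SYAT cells in control medium or after 2 h, 4 h, 6 h and 8 h of IAA; SYAT cells sorted in early G1 (EG1) or late G1 (LG1) by a mitotic degron reporter and DNA content, control or with IAA for 1 h; and SYAT clones, 1 for each construct, in which doxycycline for 24 h induced mCherry-tagged wild-type SRCAP (wtSRCAP) or its catalytically dead form (cdSRCAP), control or with IAA for 4 h, sorted for mCherry. Groups were compared within a table only.

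The start-site sequences below are shown because the TOP tract and the ETS core CCGGAAG are what ribosomal protein promoters are known for, and they belong to genes whose values are given in the results. They are 30-base windows, 10 bases before and 20 from the annotated start, read from the RefSeq promoter table of build GRCm38.p6, which held 56 of the 76 genes. Capitals mark a TOP tract (a C at the annotated start or within 5 bases of it, followed by at least 4 C or T) or the ETS core. Rps6 (chr4:86857348-86857377, minus strand), Rps27 (chr3:90213629-90213658, minus), Rps10 (chr17:27635225-27635254, minus) and Rpl31 (chr1:39367841-39367870, plus) have a TOP tract, and Rpl31 also the core.
Rps6: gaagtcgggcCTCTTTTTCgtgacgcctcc
Rps27: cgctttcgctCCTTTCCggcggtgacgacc
Rps10: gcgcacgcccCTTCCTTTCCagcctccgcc
Rpl31: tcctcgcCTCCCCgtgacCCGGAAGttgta
In Rpl11 (chr4:136053374-136053403, minus) the window holds the core but no such tract, and those of Rpl37a (chr1:72711250-72711279, plus), Rpsa (chr9:120127756-120127785, plus) and Rpl24 (chr16:55966265-55966294, plus) hold neither.
Rpl11: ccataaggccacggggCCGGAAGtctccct
Rpl37a: ctcgccggtctaaaaccgcgcatgcgcatt
Rpsa: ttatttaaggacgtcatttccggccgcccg
Rpl24: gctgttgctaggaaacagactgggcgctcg

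A TOP tract by this rule was found at 27 of the 56 ribosomal protein genes (48.2%), against 5718 of the 27025 genes in the promoter table (21.2%). The tracts were 5 to 17 bases long with a median of 7. Within 300 bases around the start, 250 before and 50 after, the ETS core CCGGAAG was present on either strand in 23 of the 56 genes (41.1%), against 9.93% of all genes. The YY1 core AAGATGG was in 9 (16.1%, against 7.28%), the GC box GGGCGG in 34 (60.7%, against 38.2%) and the TATA box TATAAA in 6 (10.7%, against 15.7%). A match is a description of the letters in this window. The TOP rule reads annotated starts, and 13 of the 29 promoters with a tract had it at the annotated base. A missing match therefore does not show that an mRNA lacks a tract.

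Exon columns summed to between 12236493 and 60214521 counts a library, and the least counted ribosomal protein gene of a library still had 171 to 688 counts. Srcap mRNA, whose protein IAA removes, measured between 39.9 and 60.2 TMM-scaled CPM (a gene's counts scaled to a fixed library total) in the SYAT time course, with no call in any contrast at edgeR's adjusted p. The pluripotency genes Pou5f1 and Sox2 measured at least 317 and 254 CPM in every library, while Cdx2 of trophoblast reached at most 2.39, Gata4 of primitive endoderm reached at most 10.00 and Col1a1 of fibroblasts at most 31.6. As in any bulk measurement, fewer cells of a type and less RNA per cell cannot be told apart. A gene was called at an adjusted p under 0.05 in edgeR's quasi-likelihood test over all genes of a table.

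Together the 76 genes took a few percent of all exon counts in every library, a share which ran from 2.62% to 4.91% over the 30 libraries. In the SYAT time course the controls had 4.01% and 4.04%, the 2 h libraries 4.13% and 4.16%, the 4 h libraries a mean of 4.21% ± 0.00311 (SD, n = 2), the 6 h libraries 4.22% and 4.05%, and the 8 h libraries 4.51% and 3.96%. The 2 h, 4 h and 6 h libraries all lay above both controls, whereas the 8 h libraries lay on either side of them. In CGR8 cells the controls had 4.81% and 4.42% and the IAA libraries 4.77% and 4.91%, which overlap.

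In EG1 it was 3.85% and 4.19% in the controls and 4.23% and 4.09% after IAA. In LG1 it was 3.89% and 4.21% in the controls and 3.90% and 4.13% after IAA. No group of sorted cells lay apart from another. In wtSRCAP cells the controls had 2.79% and 3.75% and the IAA libraries 2.62% and 3.83%, and in cdSRCAP cells the controls had 2.92% and 4.07%, with a mean of 3.71% ± 0.688 (SD, n = 2) after IAA. Replicate 1 lay below replicate 2 in each of these 4 groups, by more than any difference between the groups. Over group means the share ran from 3.22% ± 0.860 (SD, n = 2) in wtSRCAP cells with IAA to 4.84% ± 0.100 (SD, n = 2) in CGR8 cells with IAA, values that come from different tables and were not compared.

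**Figure D1:**
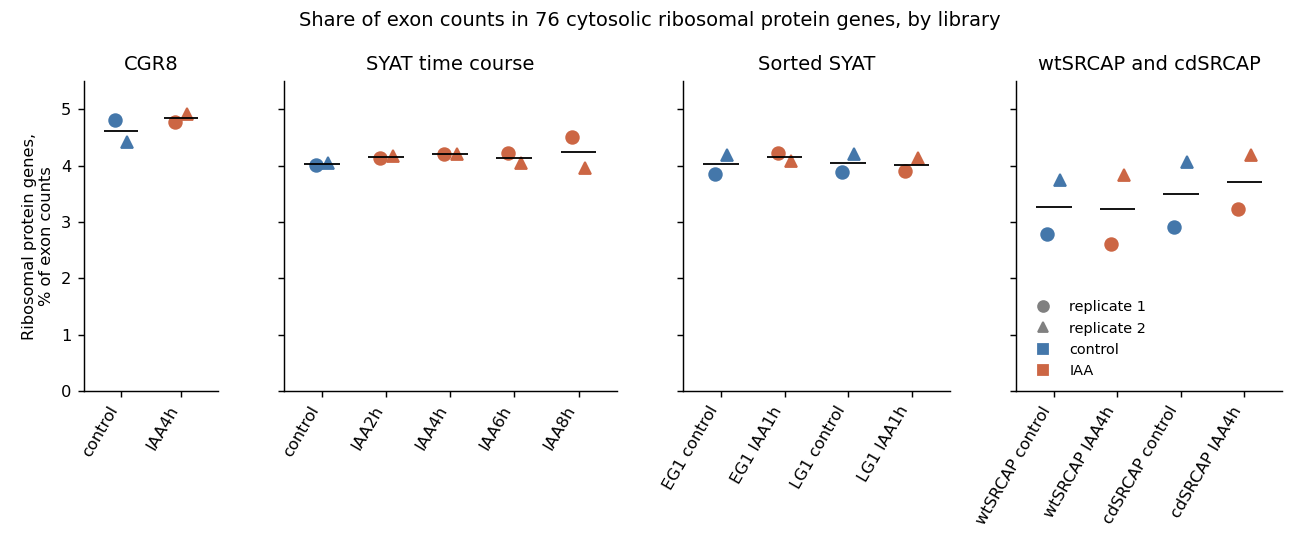
Share of exon counts (percent, y axis from 0) taken by the 76 ribosomal protein genes in each of the 30 libraries, by table and group; circles are replicate 1, triangles replicate 2, and black bars the mean of the pair. All libraries lie between 2.62% and 4.91%, and in wtSRCAP and cdSRCAP cells replicate 1 lies below replicate 2 in every group.

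Ribosomal protein mRNAs differed widely among themselves although most of their products enter the ribosome in equal numbers. Per kilobase of exon, mean levels in the SYAT time course ran from 12.1 to 1682 CPM per kb with a median of 271, a ratio of 139 between the highest and the lowest. The same ratio was 191 in CGR8 cells, 133 over EG1 and LG1 and 84.6 with induced wtSRCAP or cdSRCAP. The length used is the union of all annotated exons, from 383 bases in Rpl36 and 499 in Rplp1 to 4685 in Rps19 and 6270 in Rps15a. Levels and ranks per kb depend on this length, which need not be that of the mRNA in these cells. Without the division, the time course ran from 26.6 to 1886 CPM, and Rpl4 was highest. Between tables the order per kb was much the same, with Pearson's r of log2 levels per kb between 0.94 and 0.98 over the 76 genes. The genes share libraries and are not independent replicates, and each gene has the same length in every table, which can raise r. Of all genes in a table, 54 to 67 of the 76 were among the 1000 with the highest summed exon counts, and 8 to 17 among the 100 highest.

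Genes of the P-stalk, which recruits elongation factors to the large subunit, spanned much of this range. Rplp1 had the highest level per kb of the family in every table, at 1652 CPM per kb in CGR8 cells, 1682 in the SYAT time course, 1508 in sorted cells and 1531 with wtSRCAP or cdSRCAP. Rplp0, which anchors the stalk, measured 709, 563, 582 and 509 CPM per kb in the same order of tables, and Rplp2, the partner of Rplp1, 210.1, 181, 159 and 231. Per kb Rplp2 thus lay below Rplp1 in all 4 tables, and the margin depends on union exon lengths of 2072 and 499 bases. Without the division Rplp2 was still lower, by a smaller margin. It measured 345 and 345 CPM in the SYAT controls, against 774 and 789 for Rplp1. In the wtSRCAP controls it measured 360 and 517 CPM, against 591 and 778.

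Near the catalytic centre and exit tunnel of the large subunit, Rpl8 was second in every table, with 1038, 1244, 1332 and 1055 CPM per kb. Rpl3 measured 259, 186, 191 and 193 CPM per kb, and Rpl10, which joins the subunit last, 248, 233, 225 and 157. After it came Rpl41, the shortest protein of the family, in CGR8 cells (983), Rpl36 in the time course (996), and Rpl4 of the exit tunnel in the table of sorted cells (1099) and in that of wtSRCAP and cdSRCAP (979). Per kb the 5S rRNA partners differed from each other. Rpl5 measured 156, 80.5, 74.4 and 77.0 CPM per kb. Rpl11 measured 296 in CGR8 cells and 126 in both the time course and the wtSRCAP and cdSRCAP cells. Their union exon lengths are 3920 and 2697 bases. Undivided, Rpl5 measured 321 and 274 CPM in the SYAT controls and Rpl11 307 and 264. In the CGR8 controls they measured 674 and 569 against 1087 and 761 CPM. In the EG1 controls it was 258 and 289 against 205 and 261 CPM.

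In the small subunit, Rpsa, which shares its protein with the laminin receptor, measured 552, 405, 489.9 and 455 CPM per kb, and Rps4x 744, 524, 568 and 425. Rps6, the target of S6 kinases, measured 356, 191, 195 and 196 CPM per kb. Rps19, the gene most often mutated in Diamond-Blackfan anaemia, was lower per kb with 92.9, 90.9, 92.0 and 75.9. Its union exon length is 4685 bases, against 1586 for Rps6, and the order depends on it. Undivided, Rps19 was above Rps6 in the SYAT controls, with 417 and 388 CPM against 286 and 258. In the CGR8 controls it was below, with 403 and 396 CPM against 654 and 499.

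At the bottom of the order stood Rps10, a small subunit protein modified on collided ribosomes, and Rpl24, which bridges the subunits. Rps10 measured 11.2 CPM per kb in CGR8 cells, 12.1 in the time course, 11.3 in sorted cells and 20.1 with wtSRCAP or cdSRCAP, and Rpl24 8.64 in CGR8 cells, 25.8 in the time course and 18.1 in wtSRCAP and cdSRCAP cells. Both overlap another annotated gene on the same strand, RPS10-NUDT3 and Gm28037, whose own counts were 0 in all 30 libraries. How reads shared by overlapping genes or by near-identical copies were counted is not given in the sources used here. In all, 9 of the 76 genes overlap a gene on the same strand and 21 one on the opposite strand, and 58 have pseudogenes named after them among 289 such rows, so single levels are uncertain to that extent.

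**Figure D2:**
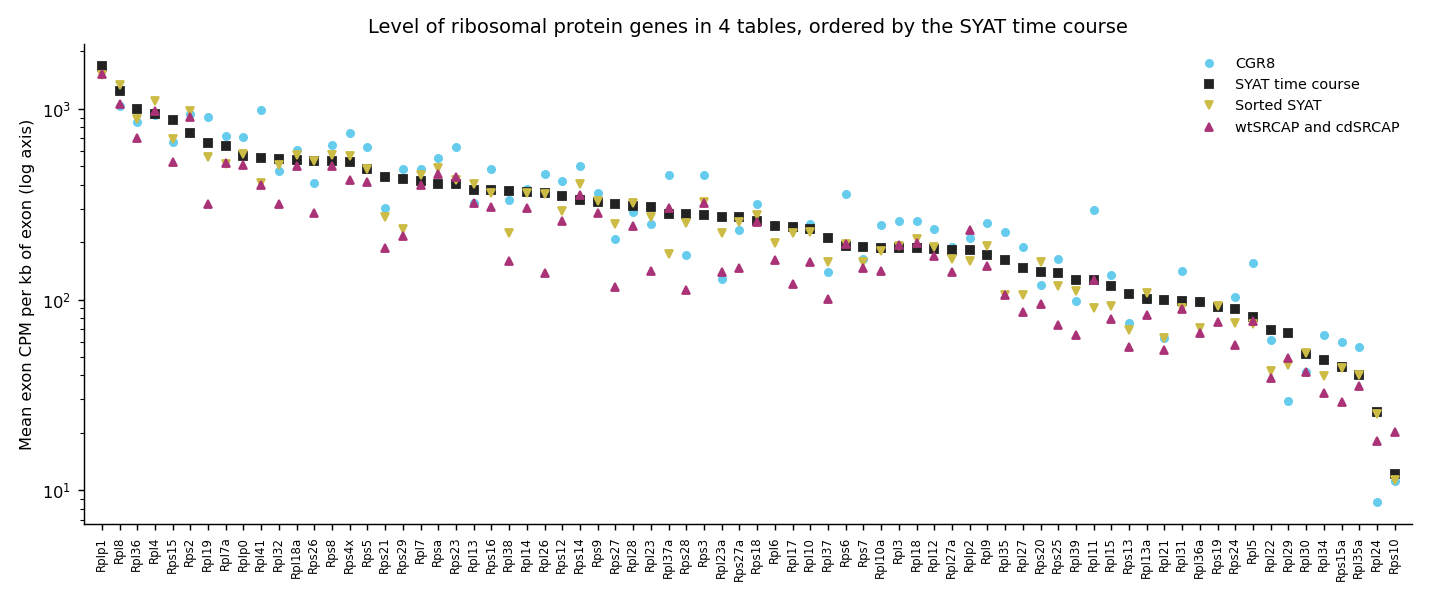
Mean exon level of 74 of the genes in each table (CPM per kilobase of exon, log axis), ordered by the level in the SYAT time course. Rplp1 is highest in all 4 tables, at 1508 to 1652 CPM per kb outside the time course and 1682 in it, and Rps10 and Rpl24 lie at the low end of each.

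After IAA in SYAT cells most ribosomal protein genes measured slightly above the controls, none of them by a called difference. At 2 h of IAA, 74 of 76 had a log2 fold change above 0, beside 50.6% of the 19205 genes tested, with a median of 0.08. At 4 h it was 75 of 76 (52.4% of all genes), with a median of 0.10, and at 8 h 75 of 76 (53.2%), with a median of 0.11. At 6 h it was 58 of 76 (50.9%), with a median of 0.19, and these genes then ran far apart. The medians over all genes tested were 0.02 at 4 h, 0.01 at 6 h and 0.03 at 8 h, and the 4 contrasts share the same 2 control libraries, so they are not separate evidence.

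None of the 76 genes was called by edgeR's quasi-likelihood test at any time, beside 0% of all genes at 2 h and 4 h, 0.0677% at 6 h and 0.00521% at 8 h. At an unadjusted p under 0.05, 0 genes were higher at 2 h (1.37% of all genes), 0 at 4 h (3.09%), 14 at 6 h (7.93%) and 1 at 8 h (5.13%), and 0 were lower at all 4 times (2.55%, 6%, 8.21% and 8.44% of all genes). DESeq2 called 0, 0, 1 and 0, the 1 being Rps10 at 6 h, where DESeq2 called 1.6% of all genes. The smallest adjusted p of the family in edgeR was 1.00 at 2 h, 0.810 at 4 h, 0.130 at 6 h and 0.287 at 8 h. The 95% intervals of 53, 46, 28 and 43 genes lay within 0.5 of 0 on the log2 scale at 2, 4, 6 and 8 h, and those of 75, 75, 70 and 73 within 1.

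Both IAA libraries exceeded both controls for 42 of the 76 genes at 2 h (18.6% of all genes), 32 at 4 h (21.7%), 42 at 6 h (21.5%) and 9 at 8 h (20.9%), and none had both IAA libraries below both controls (21%, 24.1%, 22.2% and 24% of all genes). Taken within a replicate number, the median log2 difference from the control was 0.09 and 0.07 at 2 h, 0.14 and 0.05 at 4 h, 0.13 and 0.24 at 6 h, and 0.25 and -0.04 at 8 h for replicates 1 and 2. At 8 h the 2 replicates thus went opposite ways, 76 genes above 0 in replicate 1 and 26 in replicate 2. A list of 7 nuclear-retained RNAs took 0.284% and 0.506% of exon counts in these 2 libraries. At 4 h, where both medians were above 0, it took 0.266% and 0.381%. The part of this share in the replicate differences was not tested. Without the second 8 h library the median was 0.28, and without the first -0.10.

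Rps10 rose from each time to the next in replicate 1, whereas replicate 2 was highest at 6 h. It measured 21.5 and 21.3 CPM in the SYAT controls, 24.3 and 24.7 at 2 h, 27.6 and 23.5 at 4 h, 28.3 and 45.5 at 6 h, and 30.3 and 32.6 at 8 h. Every IAA library lay above both controls. The log2 difference was 0.19 at 2 h, 0.26 at 4 h, 0.79 at 6 h (SE 0.212, 95% interval 0.31 to 1.26, adjusted p = 0.130) and 0.56 at 8 h (SE 0.211, 0.09 to 1.03, adjusted p = 0.287), none of them a call in edgeR.

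Genes at the upper end at 6 h rested on replicate 2. Rpl11 measured 307 and 264 CPM in the controls and 308 and 735 at 6 h, with a log2 difference of 0.87 (SE 0.313, 95% interval 0.17 to 1.56, adjusted p = 0.220). Rpl37a, a zinc-binding protein of the large subunit, measured 350.2 and 333 CPM in the controls and 342 and 844 at 6 h, with a log2 difference of 0.80 (SE 0.309, 0.11 to 1.48, adjusted p = 0.247). For both genes replicate 1 at 6 h lay at the level of the controls and only replicate 2 was high.

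Rpsa did likewise, with 1239 and 1092 CPM in the controls and 1239 and 2023 at 6 h. Towards the lower end were Rps27 at -0.21 (SE 0.254, 95% interval -0.77 to 0.36, adjusted p = 0.725) and Rpl17 at -0.15 (SE 0.247, -0.70 to 0.40, adjusted p = 0.800).

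Without the second 6 h library, 75 of 76 genes were above 0 with a median of 0.16, and edgeR still called 0. Without the first, in which case the lone 6 h library is assumed to vary like the other groups, edgeR called 20, of which 17 were higher and 3 lower, Rps27 among them. The median then was 0.18, and 16.8% of all genes tested were called.

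Other members had smaller differences. Rplp0 measured 937 and 863 CPM in the controls, 922 and 883 at 2 h, 947 and 859 at 4 h, 897 and 1178 at 6 h, and 1006 and 843 at 8 h. Rplp1 measured 774 and 789 CPM in the controls, 829 and 827 at 2 h, 898 and 804 at 4 h, 876 and 945 at 6 h, and 955 and 695 at 8 h. For Rplp0 no time lay apart from the controls, while Rplp1 lay above both controls at 2, 4 and 6 h and on either side at 8 h.

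Rps6 measured 286 and 258 CPM in the controls, 311 and 281 at 2 h, 311 and 275 at 4 h, 300.2 and 401 at 6 h, and 336 and 264 at 8 h. Rps19 measured 417 and 388 CPM in the controls, 459.7 and 417 at 2 h, 478 and 413 at 4 h, 460.4 and 343 at 6 h, and 497 and 384 at 8 h. For Rps6 only the 6 h libraries both lay above both controls, and for Rps19 those of no time did. Rpl5 measured 321 and 274 CPM in the controls, 336 and 291 at 2 h, 313 and 281 at 4 h, 318 and 412 at 6 h, and 332 and 279.9 at 8 h, so that the second 6 h library was its highest. By subunit, the median log2 difference at 6 h was 0.20 over the large and 0.11 over the small subunit genes, and at 4 h it was 0.09 and 0.11.

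**Figure D3:**
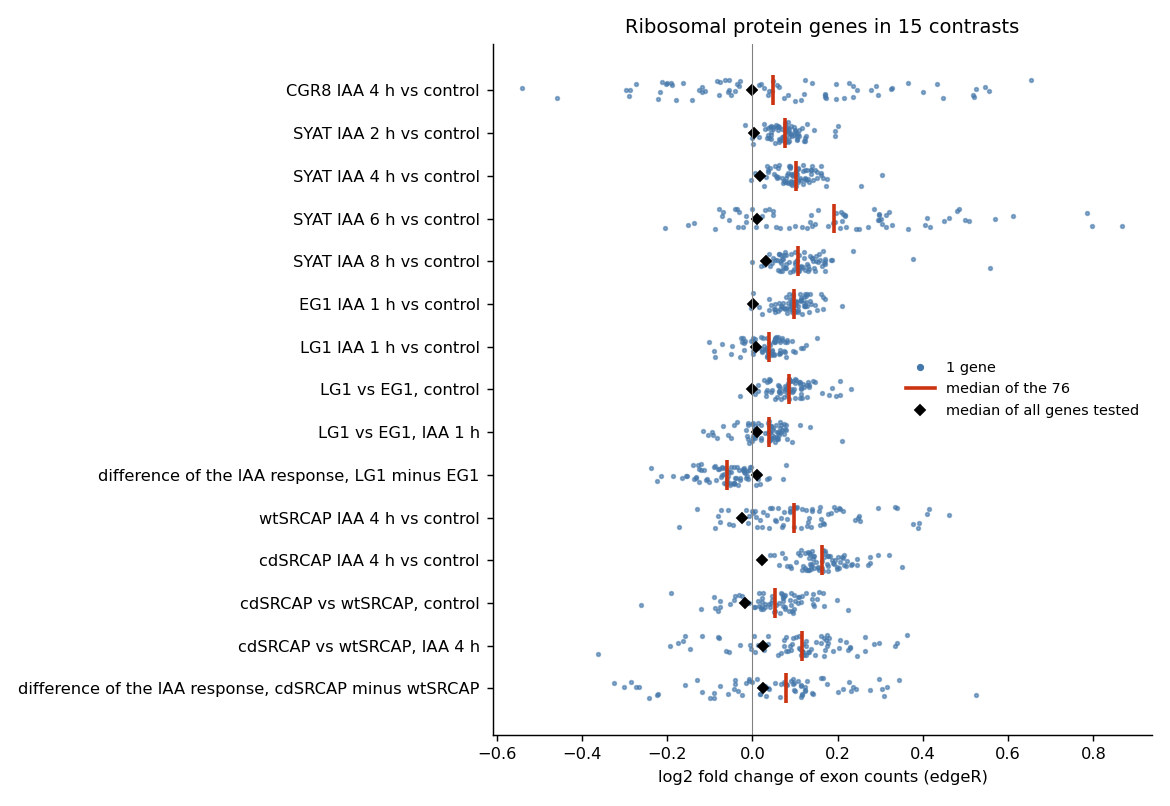
Log2 fold change of 74 of the genes (points) in exon counts in the 15 contrasts; the red bar is the median of the 76 and the diamond the median of all genes tested. Medians of the family run from -0.06 to 0.19, and the points spread widely after 6 h of IAA in SYAT cells, from -0.21 to 0.87, and in CGR8 cells, from -0.54 to 0.65.

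Parental CGR8 cells, which have no degron, were the comparison for IAA without SRCAP depletion. Here 44 of 76 ribosomal protein genes had a log2 difference above 0, beside 50% of 20250 genes, and the median was 0.05. None was called by edgeR (0.00988% of all genes). At an unadjusted p under 0.05, 12 were higher (5.04%) and 1 was lower (4.12%), DESeq2 called 1 (Rpl31, beside 0.403% of all genes), and the smallest adjusted p in edgeR was 0.540. Both IAA libraries exceeded both controls for 30 genes (21.6% of all genes), and 8 lay below both (20.6%). The 95% intervals of 39 genes lay within 0.5 of 0 and those of 71 within 1.

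Rpl31, which sits at the exit tunnel, lay towards the upper end in these cells, with 158 and 206 CPM in the controls and 259 and 315 after IAA. Both IAA libraries exceeded both controls, and the log2 difference was 0.65 (SE 0.168, 95% interval 0.27 to 1.04, adjusted p = 0.540). Rps24, with 511 and 531 CPM in the controls and 652 and 879 after IAA, followed at 0.56.

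At the lower end Rpl37a measured 1001 and 505 CPM in the controls and 539 and 498 after IAA, with a log2 difference of -0.54 (SE 0.267, 95% interval -1.15 to 0.07, adjusted p = 0.574). Rpl11 measured 1087 and 761 CPM in the controls and 724 and 620.3 after IAA, with a log2 difference of -0.46 (SE 0.180, -0.87 to -0.05, adjusted p = 0.540). For Rpl37a only control replicate 1 stood out, while for Rpl11 both controls lay above both IAA libraries. Rpl36a followed at -0.30.

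Without the first CGR8 control edgeR called 2 genes, Rpl26 and Rps27, both higher (0.734% of all genes), and the median was 0.17. Without the second control it called 13, 7 higher and 6 lower (11.1% of all genes), and the median was -0.04. The lone control is then assumed to vary like the IAA libraries.

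In cells sorted in EG1 or LG1, the family had small differences after 1 h of IAA. In EG1 75 of 76 genes had a log2 difference above 0 (50.1% of 21020 genes) with a median of 0.10, and in LG1 60 of 76 (52.5%) with a median of 0.04. Within a replicate number the EG1 median was 0.20 with 76 genes above 0 for replicate 1 but 0.02 with 44 above 0 for replicate 2, and the LG1 medians were 0.03 and 0.05 with 52 and 58 above 0. edgeR called 0 genes in each phase (0% of all genes in both), DESeq2 called 0, and at an unadjusted p under 0.05 there were 0 higher (0.19% and 0.285% of all genes) and 0 lower (1.03% and 0.733%). All 76 intervals lay within 1 of 0 in both phases, and 48 in EG1 and 58 in LG1 lay within 0.5. Both IAA libraries exceeded both controls for 21 genes in EG1 (7.98%) and 0 in LG1 (7.83%), and none was below both (13.4% and 10.4%).

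Rps21 had the largest difference in EG1. It measured 178 and 212 CPM in the EG1 controls and 232 and 218 after IAA, so that both IAA libraries lay above both controls, with a log2 difference of 0.21 (SE 0.175, 95% interval -0.20 to 0.62, adjusted p = 1.00 in edgeR). In LG1 the same gene measured 199 and 249.9 CPM in the controls and 216 and 258 after IAA, which overlap. Rpl39 measured 0.17 in EG1, and Rpl41, Rps10 and Rpl12 were lowest, the last at 0.02.

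In LG1 the ends were Rpl37a at 0.15, Rpl10a at 0.13 and Rpl11 at 0.12, and Rpl31 at -0.10, Rpl27 at -0.09 and Rpl23 at -0.09. Rplp0 showed how the replicates lay, with 849.8 and 1018 CPM in the EG1 controls, 919 and 979 in EG1 with IAA, 882 and 1074 in the LG1 controls and 870.3 and 1135 in LG1 with IAA. Replicate 2 was the higher one in each group. Over the family, replicate 2 exceeded replicate 1 for all 76 genes in the EG1 controls, the LG1 controls and LG1 with IAA, by medians of 0.21, 0.25 and 0.27 on the log2 scale, and for 47 genes in EG1 with IAA. Nuclear-retained RNAs took 0.893% and 0.429% of exon counts in the EG1 controls and 0.754% and 0.414% after IAA. In LG1 they took 1.02% and 0.491% in the controls and 0.999% and 0.461% after IAA. Replicate 1 had the higher share in each group, and the part of this share in the replicate gaps was not tested.

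The interaction test of the response to IAA between the phases called 0 of the 76 genes (0% of all genes), with 0 at an unadjusted p under 0.05 in either direction (0.452% and 0.247% of all genes higher and lower), and DESeq2 called 0. The median of LG1 minus EG1 responses was -0.06, with 8 of 76 genes above 0 (52.4% of all genes). All 76 intervals of this difference lay within 1 of 0 but only 3 within 0.5. Rpl23 at -0.24 (SE 0.200, 95% interval -0.70 to 0.22) lay near the lower end, and Rpl11 at 0.08 (SE 0.343, -0.71 to 0.87) was highest.

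Between the phases themselves, LG1 controls compared with EG1 controls had 75 of 76 genes above 0 (49.8%) with a median of 0.09, and LG1 with EG1 under IAA 56 of 76 (52.2%) with a median of 0.04. Under IAA the replicate numbers went opposite ways, with medians of -0.10 and 0.15 and 3 and 69 genes above 0, while in controls they gave 0.07 and 0.10. edgeR and DESeq2 called 0 in both (0% of all genes in edgeR), and at an unadjusted p under 0.05 there were 0 in either direction (0.709% higher and 0.733% lower in controls, 1.42% and 0.89% under IAA). The replicates did not overlap for 3 genes in controls, all higher in LG1 (10.7%), and for 7 under IAA, of which 2 were higher (11.9%) and 5 lower (11.8%). Rps10 had the largest difference in both, 0.23 (SE 0.198) in controls and 0.21 (SE 0.198) under IAA.

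With induced wtSRCAP or cdSRCAP the spread between replicates was wider than in the other tables, so that a gene's typical standard error was 0.289 on the log2 scale, against 0.145 in CGR8 cells and 0.166 in the time course and in EG1 and LG1. After IAA the log2 difference was above 0 for 61 of 76 genes in wtSRCAP cells (47.7% of 19111 genes), with a median of 0.10, and for 76 of 76 in cdSRCAP cells (52.3%), with a median of 0.16. edgeR called none in either (0.00523% and 0% of all genes), DESeq2 none, and at an unadjusted p under 0.05 there were 0 higher (2.93% and 1.65%) and 0 lower (4.48% and 3.99%). Both IAA libraries exceeded both controls for 15 genes in wtSRCAP cells (14.9%) and 10 in cdSRCAP cells (18.7%), and 0 lay below (19.5% and 19%). The intervals of 58 and 53 genes lay within 1 of 0, and of 2 and 1 within 0.5.

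In wtSRCAP cells Rpl11 measured 235 and 341 CPM in the controls and 398 and 395 after IAA, with a log2 difference of 0.46 (SE 0.289, 95% interval -0.19 to 1.11, adjusted p = 0.764). Rpl37a at 0.41 and Rps2, at the mRNA entry of the small subunit, also at 0.41 came next, and for Rps2 the controls measured 1309 and 1604 CPM and the IAA libraries 2077 and 1790.4. For Rpl11 and Rps2 both IAA libraries lay above both controls. Towards the lower end, Rpl31 measured 143 and 172 CPM in the controls and 88.7 and 190.3 after IAA, on both sides of the controls, at -0.17 (SE 0.336, -0.93 to 0.58, adjusted p = 0.958), and Rpl17 stood at -0.13.

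In cdSRCAP cells Rpl31 had the largest difference, with 112 and 151 CPM in the controls and 155 and 181 after IAA, both above both controls, at 0.35 (SE 0.336, 95% interval -0.40 to 1.11, adjusted p = 0.996). Rps21 followed at 0.32 and Rpl26 at 0.29, and the smallest differences were those of Rpl28 at 0.04, Rpl37 at 0.05 and Rpl10a at 0.06. The X-linked Rps4x was among the genes with a split between replicates, with 456 and 834 CPM in the wtSRCAP controls, 449 and 936 in wtSRCAP with IAA, 470.0 and 901 in the cdSRCAP controls and 568 and 934 in cdSRCAP with IAA. Replicate 2 was far above replicate 1 in all 4 groups. Over the family, replicate 2 exceeded replicate 1 for 64 to 73 of the 76 genes in these groups, by medians of 0.36 to 0.52 on the log2 scale. Nuclear-retained RNAs took 0.437% and 0.280% of exon counts in the wtSRCAP controls and 0.290% and 0.238% after IAA. In cdSRCAP cells they took 0.709% and 0.365% in the controls and 0.447% and 0.422% after IAA. The part of this share in the replicate gaps was not tested here either. Taken within a replicate number, the median log2 difference after IAA was 0.10 and 0.11 in wtSRCAP cells, with 48 and 73 genes above 0 for replicates 1 and 2, and 0.28 and 0.09 in cdSRCAP cells, with 75 and 70 above 0.

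The interaction test of cdSRCAP against wtSRCAP called 0 of 76 genes (0% of all genes), with 0 at an unadjusted p under 0.05 (0.413% of all genes higher and 0.372% lower), and DESeq2 called 0. The median difference of the responses was 0.08, with 51 of 76 above 0 (52.4%), and 31 intervals lay within 1 of 0 and 0 within 0.5. Rpl31 at 0.52 (SE 0.475, 95% interval -0.54 to 1.59) and Rpl11 at -0.32 (SE 0.408, -1.24 to 0.59) were the extremes. At the same treatment, cdSRCAP and wtSRCAP cells differed by medians of 0.05 in controls, with 60 of 76 above 0 (47.9%), and 0.12 under IAA, with 62 of 76 above 0 (52.5%).

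For these 2 comparisons edgeR and DESeq2 called 0 genes (0% and 0.00523% of all genes in edgeR), with 0 at an unadjusted p under 0.05 in either direction (2.5% and 2.84% of all genes higher, 1.32% and 2.19% lower). Replicates did not overlap for 4 genes in controls, all higher in cdSRCAP cells (15.7% of all genes), and for 9 under IAA, 8 higher (19.1%) and 1 lower (14.6%). Rpl31 at -0.26 and Rpl24 at 0.22 were the extremes in controls, and under IAA Rpl37a was lowest at -0.36 and Rpl17 lay towards the upper end at 0.36.

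The same few genes lay at the ends of these lists, and they departed most in 3 libraries. For each library the log2 level of a gene was set against its median over the libraries of the table, and the library's median over the 76 genes was taken off, which leaves how far a gene departs from its family. The SD of these departures over the 76 genes was 0.480 in SYAT IAA 6 h replicate 2, 0.379 in wtSRCAP IAA 4 h replicate 1 and 0.295 in CGR8 control replicate 1, against 0.0374 to 0.228 in the other 27 libraries. These 3 libraries were picked after their values were seen, and they come from different tables and treatments, an untreated parental control among them.

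Departures of single genes were alike in the 3 libraries. Rpl31 lay at -0.81 in the 6 h library, -0.53 in the wtSRCAP library and -0.59 in the CGR8 control, on the log2 scale and relative to the family, and Rpl17 at -0.74, -0.82 and -0.27. On the other side Rpl37a lay at 1.19, 0.48 and 0.90.

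Rpl11 lay at 1.18, 0.39 and 0.51, and Rpsa at 0.61, 0.64 and 0.46. Rps10 lay high in the 6 h and wtSRCAP libraries, at 0.71 and 0.73 against 0.01, and Rpl24 was low in the 6 h library and the CGR8 control, at -0.79 and -0.74 against 0.10. Over the 76 genes Pearson's r of the departures was 0.79 between the 6 h and wtSRCAP libraries, 0.82 between the 6 h library and the CGR8 control, and 0.66 between the wtSRCAP library and the CGR8 control. With LG1 IAA 1 h replicate 2 the departures of the 3 libraries had r of 0.62, 0.59 and 0.50, and with CGR8 IAA 4 h replicate 2, which shares its table and hence its reference with the CGR8 control, r of -0.73, -0.77 and -0.63. Genes are not independent replicates, and these values are descriptions. In all 3 libraries 57 genes departed in the same direction, 28 above and 29 below the family. Departures were computed for the 76 genes only, and whether genes outside the family departed alike was not tested.

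These libraries also stood apart in other RNA. Mitochondrially encoded mRNAs took 0.280% of exon counts in the 6 h library (table median 1.18%), 0.188% in the wtSRCAP library (0.571%) and 0.450% in the CGR8 control (0.935%), the lowest of each table. Ribosomal protein pseudogenes took 0.0622% (0.105%), 0.0333% (0.0585%) and 0.0763% (0.0897%), again the lowest of each table. A single unnamed gene row, the most counted of all, took 10.2%, 23.9% and 8.54% of their exon counts, the highest of each table. Other libraries came near, such as SYAT control replicate 1 with 8.47% and cdSRCAP control replicate 1 with 17.3%. In sorted cells the row took 9.26% to 11.9%. The part of this row in the departures was not tested, nor that of the mitochondrial share.

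**Figure D4:**
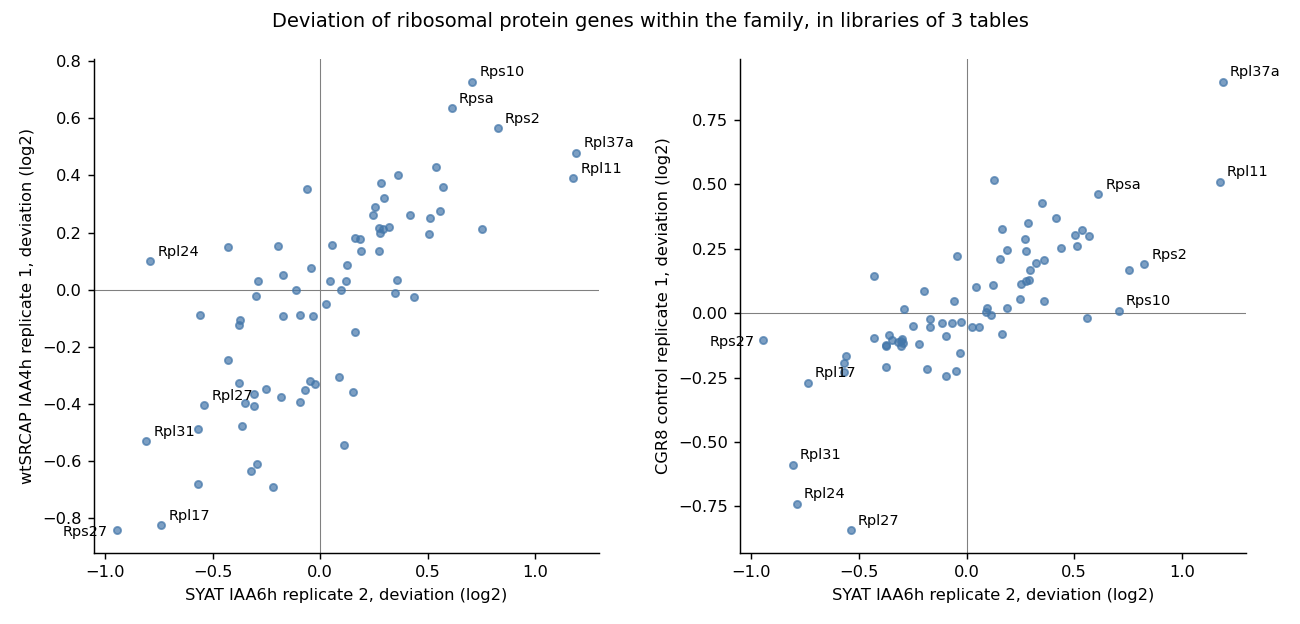
Departure of 74 of the genes from their family (log2) in SYAT IAA 6 h replicate 2 (x axis) against wtSRCAP IAA 4 h replicate 1 (left, y axis) and CGR8 control replicate 1 (right, y axis). Points lie along a rising diagonal in both panels (r of 0.79 and 0.82 over the 76 genes), with Rpl31 at the lower left and Rpl37a and Rpl11 at the upper right.

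Of ribosomal protein genes that the symbol rule misses, Fau, whose product carries the small subunit protein RPS30, measured 306 and 278 CPM in the SYAT controls and 319 and 729 at 6 h, and in CGR8 cells 460.4 and 264 CPM in the controls and 291 and 264 after IAA. In each table a single library stood far above the rest, the 6 h replicate 2 and the CGR8 control replicate 1. Rps3a1 measured 199 and 195 CPM in the SYAT controls and 225 and 227 at 6 h, with no library apart from the others as in Fau.

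Lists of related genes, taken from the same fits, gave 0 calls in all 15 contrasts. Of 77 tested genes for mitochondrial ribosomal proteins, which make the separate ribosome of that organelle, 18, 20, 33 and 24 had a log2 difference above 0 after 2, 4, 6 and 8 h of IAA in SYAT cells, with medians of -0.09, -0.11, -0.08 and -0.15. Of all genes tested, 50.6%, 52.4%, 50.9% and 53.2% were above 0 at these times. At 8 h 13 of the 77 were lower at an unadjusted p under 0.05 and 2 higher. The shares of all genes at this p are given with the SYAT time course above. The difference between the mitochondrial and the cytosolic ribosomal protein genes was not tested, and the 4 fits share their control libraries. In CGR8 cells 43 of the 77 were above 0 (50% of all genes), with a median of 0.04.

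Of 21 other mRNAs known for a TOP tract, such as elongation factor genes, 20, 19, 14 and 17 were above 0 at 2, 4, 6 and 8 h, with medians of 0.08, 0.10, 0.06 and 0.12. Of 89 ribosome biogenesis factors, 56, 47, 60 and 63 were above 0, with medians of 0.03, 0.02, 0.16 and 0.08, and at 6 h 18 were higher at an unadjusted p under 0.05 and 1 lower. For these lists too, the shares of all genes above 0 and at this p are those given above. The 20 genes of RNA polymerase I, which transcribes rRNA, had medians of -0.02, -0.03, 0.04 and 0.05, and the 19 regulators of ribosomal protein genes and TOP mRNAs 0.03, 0.08, 0.05 and 0.03. The 8 paralogs of ribosomal proteins had medians of 0.02, 0.12, 0.08 and 0.01.

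Genes with and without a TOP tract by the rule above had similar medians, and the difference was not tested. The group without a match can include mRNAs that begin with a tract at another start. In SYAT cells the 27 genes with a tract had median log2 differences of 0.08, 0.09, 0.22 and 0.11 at 2, 4, 6 and 8 h, and the 29 matched genes without one 0.08, 0.10, 0.19 and 0.10. In CGR8 cells the medians were -0.03 with and 0.06 without a tract. Rpl11, Rpl37a, Rpsa and Rpl24, whose windows lack a tract, and Rps10 and Rpl31, whose windows have one, were on both sides of the family in the libraries that departed. Averaged over those 3 libraries, the median departure was 0.09 for the 27 genes with a tract and -0.05 for the 29 without. It was 0.20 for the 23 genes with the ETS core and -0.05 for the 33 without. These differences were not tested either.

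Intron columns were read second, since in several tables they held little of their own for these genes. The median ratio of intron to exon counts over the 76 genes was 1.00 to 1.01 in every library of the SYAT time course and of EG1, and at most 0.0243 in LG1, CGR8, wtSRCAP and cdSRCAP cells. In the time course the intron count exceeded the exon count in 525 of 760 gene and library pairs (69.1%), and in EG1 in 201 of 304, while in CGR8 cells this was 0 of 304 and in wtSRCAP and cdSRCAP cells 0 of 608. Rplp0 in the first SYAT control had 18800 intron and 18517 exon counts, against 661 intron and 57221 exon counts in the first CGR8 control and 438 intron and 18038 exon counts in the first LG1 control. Where above 0, the intron count was within 5% of the exon count in 532 of 710 pairs of the time course and in 203 of 282 of EG1, so these columns carried the exon signal nearly whole. EG1 and LG1 were for this reason not compared in introns.

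Of the 76 genes, 14 had an intron count of 0 in every CGR8 library, 5 in the time course, 4 over EG1 and LG1 and 13 with induced wtSRCAP or cdSRCAP, and 4 of them, Rpl13, Rpl35, Rpl35a and Rps10, were at 0 in all 4 tables. Rpl9 and Rps13, at 0 in CGR8 cells, have an annotated intron length of 0, while Rps10 and Rpl35 have introns in the annotation, and why their columns hold 0 was not tested.

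**Figure D5:**
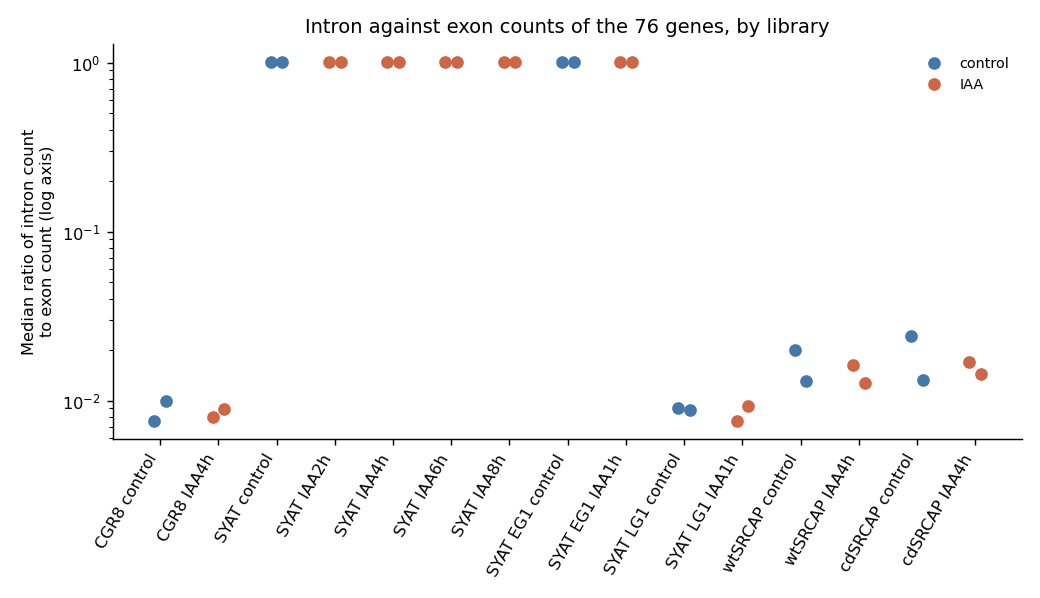
Median over the 76 genes of the ratio of intron to exon counts in each library (log axis), by group. The SYAT time course and EG1 lie at 1.00 to 1.01, and all other libraries at or below 0.0243.

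In intron columns edgeR called 0 of the tested ribosomal protein genes in every contrast fitted, beside 0% to 0.299% of all genes. For the SYAT time course and EG1, whose intron columns carried the exon signal nearly whole, this repeats the exon test and is not a second measure. In CGR8 cells 62 genes could be tested, the median log2 difference was -0.29 with 13 above 0, and 8 were lower at an unadjusted p under 0.05 (2.68% of all genes) and 0 higher (2.57%). In wtSRCAP cells 61 were tested, the median was 0.31 with 48 above 0, and 14 were higher (5.76%) and 0 lower (6.61%). In cdSRCAP cells the median was 0.03 with 34 above 0 and 0 in either direction (3.78% higher and 7.49% lower). Under IAA cdSRCAP cells lay below wtSRCAP cells by a median of -0.27, with 13 genes lower (4.39%), and the interaction gave -0.28 with 4 lower (1.67%).

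Rpl32 had the smallest p in wtSRCAP cells, with a log2 difference of 0.67 in introns (adjusted p = 0.185), and Rps18 followed at 0.69 (adjusted p = 0.208). The share of intron counts in the 76 genes was 0.358% and 0.430% in the wtSRCAP controls and 0.447% and 0.485% after IAA, and 0.343% and 0.385% in the cdSRCAP controls and 0.344% and 0.351% after IAA. The wtSRCAP libraries with IAA lay above the 6 others. In CGR8 cells it was 0.778% and 0.614% in the controls and 0.573% and 0.604% after IAA, with both IAA libraries below both controls.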

How the data were processed

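Nuclear RNA of 30 libraries, 2 biological replicates in each of 15 groups, was sequenced from a directional library kit. Per the labels and the study's methods, the authors aligned reads to mm10 with STAR and deposited raw counts per gene from featureCounts, for exons and for introns (the gene body without exons); their processing notes also name Picard and SAMtools 1.10. Strand and multiple-mapping settings are not given in the sources used here. Deposited tables of the authors' own comparisons, which hold fold changes and p-values, were not used.

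Exon counts, 12236493 to 60214521 a library, were fitted table by table with edgeR 4.0.16 (R 4.3.3): filterByExpr with a minimum count of 10 and a minimum total of 15, TMM scaling, a quasi-likelihood fit with 1 mean per group, and Benjamini-Hochberg adjustment over all genes tested. CPM are TMM-scaled. Tests were two-sided, intervals are 95%, and summaries used Python 3.11.15. The fit was tested on simulated data. Alternatives were RLE or total-count scaling, TMM without mitochondrial genes and the 76 genes, no filter, DESeq2 1.42.0, a replicate block, each library left out, intron columns and the study's thresholds; DESeq2 with the block was added after seeing the data. With 2 replicates, p-values rest on the spread shared over genes.

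The genes and lists were chosen with earlier results of these data known. Genes named are the 3 highest and 3 lowest per kb in each table, the 3 highest and 3 lowest fold changes and up to 12 called genes in each contrast, a set of P-stalk, disease and regulatory members, and Fau, Rps3a1 and Srcap; further names were chosen after values were seen. Some genes that this rule names are not reported here; they stay in counts and medians, and figures of single genes show 74.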

Additional observations from a re-analysis of the deposited data

How the results depend on the processing

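Under RLE scaling, medians of the 76 genes kept within the spread between replicates in all 15 contrasts. Their counts of calls kept within 1.5 times the count. Both also held under TMM without mitochondrial genes and the family. The spread was 0.14 in CGR8 cells, 0.15 in the time course, 0.13 over EG1 and LG1 and 0.34 with induced wtSRCAP or cdSRCAP. It was larger than the size of the median in every contrast but SYAT cells at 6 h. Elsewhere a vanished shift would therefore also have been kept. Counts of calls kept under the study's thresholds too. Outside EG1 and LG1 these add a fold change cut-off to the adjusted p, so a count without calls could not change. In CGR8 cells edgeR called 8 genes without the filter on low counts (1.26% of all genes) and DESeq2 called 1 (0.403%). In SYAT cells at 6 h edgeR called 7 without the filter (2.47%) and DESeq2 1 (1.6%), and with total counts in place of TMM the median was 0.018 (-0.16 over all genes). In intron columns the median was -0.29 in CGR8 cells, -0.27 for cdSRCAP against wtSRCAP under IAA and -0.28 for the difference of their responses. The cause of these changes was not tested.

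A replicate block in the model gave edgeR calls for 7 genes in CGR8 cells (2.97% of all genes) and 0 in the other 14 contrasts, and DESeq2 with the block, added after seeing the data, called 9 in CGR8 cells (2.03% of all genes), 1 at 6 h in SYAT cells (3.5%) and 4 in wtSRCAP cells (2.54%). The labels do not say that a number marks a shared culture or day, and the correlation of same-numbered libraries' deviations was 0.0612 in CGR8 cells and ran from -0.0425 to 0.558 in the time course, from 0.336 to 0.555 in sorted cells and from 0.203 to 0.311 in wtSRCAP and cdSRCAP cells.

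Leaving out each library in turn gave 0 to 13 calls in CGR8 cells and 0 to 20 at 6 h, and 0 in the other 13 contrasts. The median then ran from -0.04 to 0.17 in CGR8 cells, from 0.04 to 0.11 at 2 h, 0.03 to 0.18 at 4 h, 0.14 to 0.22 at 6 h and -0.10 to 0.28 at 8 h. In sorted cells it ran from 0.01 to 0.21 in EG1, -0.08 to 0.16 in LG1, -0.04 to 0.21 for LG1 against EG1 in controls, -0.10 to 0.13 under IAA and -0.19 to 0.06 for the difference of responses. It ran from -0.11 to 0.40 in wtSRCAP cells, -0.08 to 0.44 in cdSRCAP cells, -0.23 to 0.31 for cdSRCAP against wtSRCAP in controls, -0.17 to 0.34 under IAA and -0.22 to 0.36 for the difference of responses. The lowest exon count of these genes in a library was 171, and the part of exon depth in the spread between libraries was not tested.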
